A study of Mus musculus with 7 samples.

Results

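The cells described here are conventional T cells of the inflamed mouse central nervous system in which transcripts of the chemokine receptor gene Cxcr6 were detected. A cell barcode was a member when it had at least 200 genes, at most 10% mitochondrial counts, at least 2 unique molecular identifiers (UMIs, the counted transcript molecules) of the CD3 genes Cd3d, Cd3e and Cd3g together, and at least 1 Cxcr6 UMI. Barcodes with any UMI of Ikzf2, Cd8a, Cd8b1 or Cd163l1 were left out, which removes many regulatory, CD8 and gamma delta T cells. Barcodes with more than 1 UMI of Ccl1 and Nrgn together, or of Tmem176a and Tmem176b together, were left out as well, as were those with more than 120 UMIs of the myeloid genes Lyz2, C1qb and Cd74 per 10000. Of 13922 deposited barcodes, 1376 were members. They were thus chosen by measured transcript counts, and the levels of those genes are given as a description.

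CXCR6 is a receptor for the chemokine CXCL16, a protein that myeloid cells carry on their surface and can shed. T cells gain CXCR6 as they become effector or tissue-resident cells, while resting T cells carry CCR7, a receptor that brings them to lymph nodes, and depend on the transcription factor TCF1. In experimental autoimmune encephalomyelitis, a mouse model of multiple sclerosis, T helper cells that make interferon gamma, interleukin 17 or GM-CSF enter the brain and spinal cord. LAG3 is an inhibitory receptor that activated T cells carry and that binds MHC class II among other ligands.

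All libraries came from the central nervous system of B6 mice immunised with the MOG35-55 peptide and taken at the peak of disease with matched scores. The labels give Lag3wt controls (WT) and Lag3Floxed mice described as LAG3-deficient (Lag3KO), age and sex matched, with 5 mice per group. They name no Cre line, deleted exons or cells in which the gene was removed, and no label ties a mouse to a library. CD4 or CD45 cells were enriched with magnetic beads, which gave 2 WT and 2 Lag3KO libraries of the CD4 enrichment and 2 WT and 1 Lag3KO library of the CD45 enrichment. Because separate animals are not stated for the libraries, the p values below measure only the spread between these libraries.

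The libraries held between 4585251 and 18940186 UMIs. In library order (WT CD4 1 and 2, Lag3KO CD4 1 and 2, WT CD45 1 and 2, Lag3KO CD45 1, the order used for every list of 7 values below) the members numbered 302, 298, 239, 354, 55, 65 and 63, with 219208 to 992484 UMIs per library. Lag3 in the members stood at 21.8, 1.14, 0, 0, 18.3, 0 and 0 UMIs per 1000000 of the members' UMIs (CPM), and a count of 0 allows 3.02 to 4.66 CPM in the Lag3KO CD4 members and 11.7 to 12.5 CPM in the CD45 members that had none. Counted over all barcodes, Lag3 had 289, 107, 1, 0, 304, 4 and 2 UMIs. With 4 in all, the library labelled WT_CD45 2 had a level near those of the Lag3KO libraries, against its label. Some results that rest on it are given with and without it, and the others only with it. Xist stood at 889 to 1043 CPM in the members of the CD4 libraries and at 0 in those of the CD45 libraries, where the Y-linked gene Ddx3y had 33.3 to 45.8 CPM. Sex, depth and gene annotation thus differed with the enrichment and cannot be told apart from it. Between 0 and 12 barcodes were shared by any pair of libraries, and no member barcode was.

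The comparison class was the 1679 conventional T cells that met every other condition and held no Cxcr6 UMI. A cell without a Cxcr6 UMI may still express the gene, and the members were deeper, with median UMIs of 2349.5, 2507.5, 2227, 2291, 3396, 3281 and 3267 against 1719, 1974.5, 1630, 1750.5, 3094, 3059 and 3265. The presence of Cxcr6 defined these 2 classes, so their differences are described and not tested. Cxcr6 (chr9:123806475-123811760, GRCm38) stood at 925, 848, 977, 776, 834, 857 and 747 CPM in the members, with 536 members holding 1 UMI, 335 holding 2 and 505 holding 3 or more. It was not particular to the members among T cells, since 3203 T cell barcodes under the myeloid limit had a Cxcr6 UMI. By library, these were 72.2 to 100% of T cells with a Cd163l1 UMI and 23.7 to 49.0% of those with an Ikzf2 UMI. Of T cells with over 1 Tmem176a and Tmem176b UMI they were 67.8 to 82.2%. Myeloid barcodes without CD3 transcripts held 0 to 2.44 CPM of Cxcr6, and at most 1.58% of them had a UMI, although they were deeper than the members. The ligand gene Cxcl16 lay the other way, at 319.9 to 642 CPM in those myeloid barcodes and 0 to 102 CPM in the members. At the limits of the rule, 51 members had exactly 2 CD3 UMIs and 26 barcodes were kept out with 1, and 8 members lay between 100 and 120 myeloid UMIs per 10000 with 8 barcodes just above that range. Of these 8 members, 6 came from Lag3KO CD45 1.

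The given markers are described here and do not test the label of effector cells. The members and lists were chosen with earlier results of these data known. All of S100a4, Id2 and Lgals1 were found in 818 of 1376 members, a count not made in the cells without Cxcr6. S100a4, a calcium-binding protein of motile and memory T cells, stood at 734, 855, 541, 716, 1818, 2635 and 1892 CPM in the members against 344, 372, 271, 341, 902, 1049 and 1494 in the cells without Cxcr6. Id2, a regulator that supports effector differentiation, stood at 1759.7, 1509, 1246, 1627, 1383, 1548 and 1501 CPM against 775, 873, 763, 933, 823, 811 and 883. Lgals1, which encodes galectin-1, stood at 2386, 2539, 2975, 2554, 2450.2, 3301 and 3018 CPM against 1254, 1470.0, 1461, 1216, 1844, 2330.2 and 2289. Each gene was higher in the members in 7 of 7 libraries, and the mean log2 ratios were 1.00 ± 0.31 for S100a4, 0.84 ± 0.17 for Id2 and 0.73 ± 0.29 for Lgals1 (SD, n = 7). S100a4 was not particular to T cells, since 20.9 to 73.9% of myeloid barcodes had a UMI, and it was highest in the CD45 libraries.

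Alpha beta T cell receptor genes, which only the CD45 files list, were found in most members of those libraries. Trac was found in 92.1 to 92.7% of members and Trbc2 in 96.9 to 100%, while Trdc of the gamma delta receptor was found in 1.54 to 4.76%. Zbtb16 and Sox13, regulators of innate-like T cells, were at 0 in all libraries, and Foxp3, the regulator of regulatory T cells, had 5 UMIs over all members. The gamma delta gene Tcrg-C2 was found in 15.9% of the members of Lag3KO CD45 1 (10 of 63) and in 1.82 and 1.54% of those of the WT CD45 libraries. Other Treg transcripts were present: 121 members had a Foxp3 UMI or at least 2 UMIs of Il2ra, Gpr83, Lrrc32 and Nrp1 together, and the 13 Treg marker genes, some of which activated T cells share, summed to 989 to 2092 CPM. Without these 121 members the genotype calls described below were 5 in place of 16 over both enrichments, 4 in place of 7 in the CD4 libraries and 1 in place of 10 in the CD45 libraries. The CD8 genes are at 0 by the rule. A Cd4 UMI was found in 48.7% of the members of WT CD4 1 and 52% of WT CD4 2, so its absence from a cell says little at this depth.

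The genes whose levels followed Cxcr6 most closely included a cytokine, chemoattractant receptors and proteases on the higher side, and a lymph node homing receptor and a regulator of resting T cells on the lower side. Of 5286 genes with a mean of at least 20 CPM in the higher class, 30 (0.568%) were past 0.5 on the log2 scale in one direction in all 7 libraries, after 1 UMI was added to each sum, and this is the contrast that chose the members. Of these, 14 (0.265%) were higher in the members and 16 (0.303%) were lower. The higher genes included Klrc1, Klrc2, Ifng, Furin, Ltb4r1, Actn2, Ctsw and Ccr2, and the lower genes included Ccr7, Cd27, Tcf7, Slamf6, Izumo1r and Foxp1. In the plot of these ratios by library, the higher genes lie right of zero and the lower genes left of it in every library, as the rule for naming them requires.

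**Figure D1:**
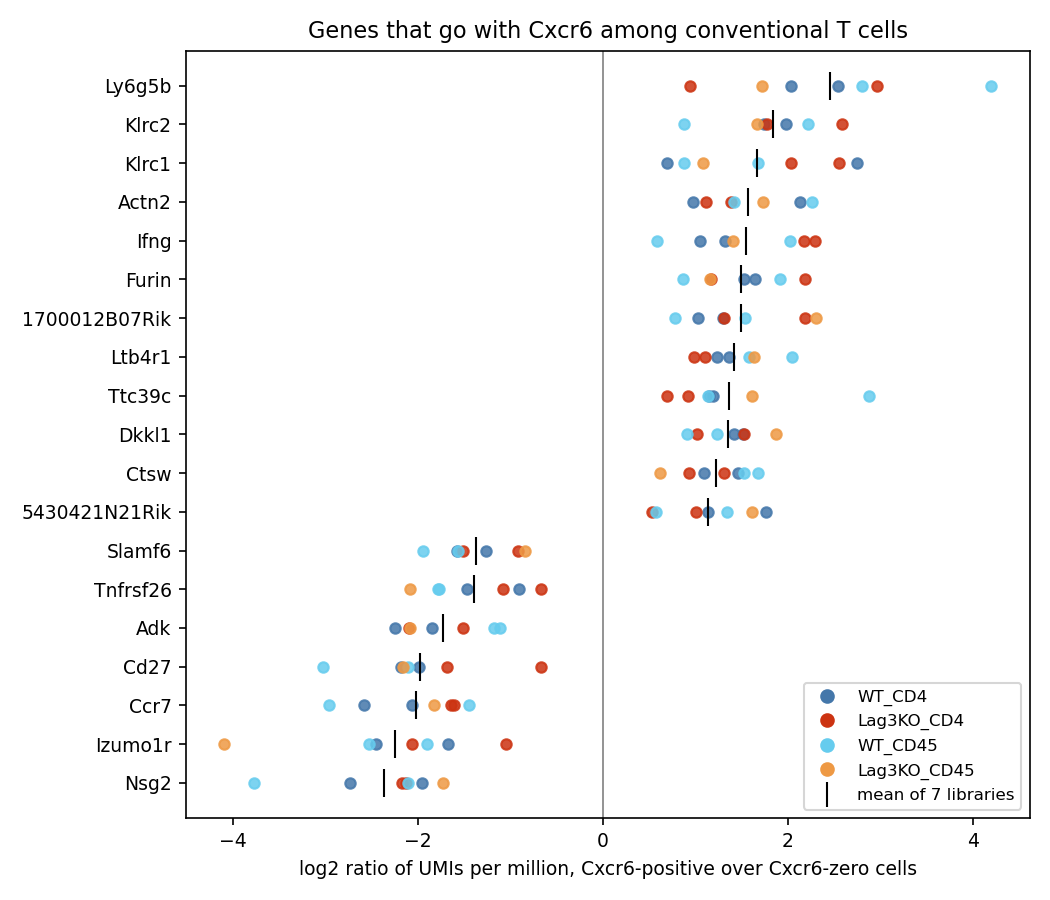
Log2 ratio of CPM in Cxcr6-positive over Cxcr6-zero conventional T cells, 1 point per library coloured by group and a bar at the mean of the 7, for 19 of the 30 genes. Ly6g5b has the highest mean shown at 2.45 and Nsg2 the lowest shown at -2.37, and no point crosses zero.

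Among the higher genes, Ifng, the T helper 1 cytokine gene, stood at 162, 121, 477, 189, 124, 175 and 113 CPM in the members against 78, 47.2, 95.6, 41.6, 23.7, 113 and 38.9, a mean log2 ratio of 1.55 ± 0.63 (SD, n = 7). An Ifng UMI was found in 16.2 to 30.8% of members and in 4.02 to 20.8% of the cells without Cxcr6, and in 0 to 1.30% of myeloid barcodes. When each cell was thinned to 1000 UMIs, the shares were 8.45 to 15.4% and 2.08 to 8.33%. Ifng was thus more frequent as well as higher in the members of every library, at equal depth too.

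Furin, a protease that cleaves precursor proteins in the secretory route and is induced by T cell activation, stood at 312, 333, 294, 311, 284, 529 and 305 CPM against 108, 105, 129.8, 68, 150.4, 136 and 133. The leukotriene B4 receptor gene Ltb4r1 stood at 66.5, 114, 124, 91.7, 137, 112 and 82.1 CPM against 25.2, 47.2, 61.5, 42.4, 39.6, 22.7 and 22.2. Ccr2, the receptor for CCL2, stood at 224, 269, 235, 235, 252, 233 and 207 CPM against 114, 163, 109, 123, 127, 96.4 and 106. The 2 classes did not overlap for Furin, Ltb4r1 or Ccr2, but these genes were named by the same contrast. The share of all genes without such overlap was not counted. Among these genes Ccr2 varied least, with a mean log2 ratio of 0.97 ± 0.16 (SD, n = 7). Ctsw, a protease gene of cytotoxic lymphocytes, had a mean ratio of 1.23 and Actn2, an actin cross-linking protein, one of 1.57.

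Klrc1 and Klrc2 encode NKG2A and NKG2C, lectin-like receptors of NK and T cells that pair with CD94. They are near copies at chr6:129666015-129678973 and chr6:129647496-129660689, so the split of reads between them is uncertain. Klrc1 stood at 60.5, 54.7, 54.4, 27.2, 45.8, 16.6 and 7.82 CPM in the members against 8.03, 32.7, 11.4, 4, 7.91, 5.67 and 0, with 0 to 18 UMIs per library in the cells without Cxcr6. Klrc2 stood at 16.9, 17.1, 52.9, 18.1, 32.1, 16.6 and 31.3 CPM against 3.44, 3.63, 13.7, 2.4, 0, 5.67 and 5.55. Both were higher in the members of every library, and both rest on few UMIs outside the CD4 members.

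The 16 lower genes included 5 of the resting and stem-like list, and also genes outside it such as Adk, which encodes adenosine kinase (mean log2 ratio -1.73), Nsg2 (-2.37) and Tnfrsf26 (-1.40). Ccr7, the lymph node homing receptor, stood at 16.9, 7.97, 17.1, 13.1, 4.58, 8.32 and 3.91 CPM against 74.6, 52.6, 54.6, 43.2, 63.3, 28.3 and 22.2. Tcf7, which encodes TCF1, stood at 122, 133, 112, 142, 59.5, 45.8 and 50.8 CPM against 322, 292, 237, 295, 158, 130.4 and 133. Both were lower in the members of all 7 libraries, with mean log2 ratios of -2.02 for Ccr7 and -1.26 for Tcf7.

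Cd27, a costimulatory receptor lost by terminally differentiated cells, had a mean log2 ratio of -1.97, and Slamf6, a receptor of stem-like T cells, one of -1.38. Izumo1r, the folate receptor 4 gene of anergic and regulatory T cells, had one of -2.25. Tcf7 was still found in 354 members.

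The effector and resting gene lists lay on the same sides. Of the tissue and effector list, 25 of the 28 genes described were higher in the members on average and 10 were higher in all 7 libraries, with a median log2 ratio of 0.43, against -0.00032 over all genes and 3.9% of all genes higher in all 7. Of the resting and stem-like list, 15 of 18 were lower and 9 were lower in all 7 libraries, with a median of -0.74, against 3.9% of all genes. All 16 glycolysis genes had a positive mean ratio (median 0.28), although 1 of them was higher in all 7 libraries. Of 19 cell cycle genes 16 had a positive mean (median 0.20), but 1 of them was higher in all 7 libraries. The summed level of this list was lower in the members of WT CD45 1 (1452 against 2825 CPM) and Lag3KO CD45 1 (3824 against 4505 CPM). It was higher in the members of the other libraries. Mki67 or Top2a, genes of dividing cells, had a UMI in 125 members, a count not made in the cells without Cxcr6.

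Type I interferon response genes lay the other way. Of 23 described, 22 had a lower mean in the members and 8 were lower in all 7 libraries, with a median log2 ratio of -0.45. The summed level of this list was 3771, 4847, 4074, 7407, 3435, 3871 and 3159 CPM in the members against 5089, 7433, 6843, 9084, 5287, 5108 and 4616 in the cells without Cxcr6. Ifi27l2a gave the largest part of it, at 1229, 1755, 1387, 3616, 1475, 1682 and 1431 CPM against 2398, 3499, 2871, 4575, 2161, 2852 and 2483. The members were lower in each library, although those of Lag3KO CD4 2 stood above the cells without Cxcr6 of 5 of the other 6 libraries.

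Helper cytokines and regulators were detected in a minority of the members. Of the 1376 members, 252 had an Ifng UMI, 29 an Il17a UMI and 2 both, and 39 had a Csf2 UMI, of which 19 also had Ifng. Tbx21, the T helper 1 regulator, was found in 119 members. At this depth a missing UMI does not show that a cell lacks the gene. In sums, Tbx21 was higher in the members of 7 of 7 libraries, at 22.2 to 45.8 CPM against 0 to 33.3.

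The cytotoxic list was not raised as a whole, with 5 of 7 genes lower on average and a median of -0.34. Nkg7, a granule protein gene, was higher in the members of 6 of 7 libraries, the exception being Lag3KO CD45 1, and 524 members had both Nkg7 and Ccl5. Ccl5, a chemokine gene of effector and cytotoxic cells, stood at 2338, 1885, 2087, 5380.4, 2276, 1498 and 2143 CPM in the members against 3115, 4263, 4810.1, 4965, 1963, 2041 and 3927, and was lower in 5 of 7 libraries. Among the co-inhibitory receptors 3 of 7 genes were higher and 4 lower (median -0.0056), with Ctla4 lower in 7 of 7 libraries (mean -0.96). The level of Ccl5 was high in the members of Lag3KO CD4 2 and lay between 1498 and 2338 CPM in the other 6 libraries.

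In the 4 CD4 libraries, conventional T cells were also divided by their number of Cxcr6 UMIs, with 1553 cells of the comparison class at 0 and 482, 297 and 414 members at 1, 2 and 3 or more. Mean Lgals1 over the libraries was 1350.5, 2151, 2549 and 3082 CPM in these steps, and mean Id2 was 836, 1326, 1508 and 1749.9 CPM. Mean Tcf7 was 287, 159, 135 and 91.1 CPM, and mean Il7r, the interleukin 7 receptor gene, was 419.7, 329, 243 and 212 CPM. In these means Lgals1 was thus higher and Tcf7 lower at each further step, although Tcf7 in WT CD4 2 stood at 138 and 143 CPM at 1 and 2 UMIs. For Tcf7 the lowest library without Cxcr6 (237 CPM) lay above the highest library at 1 UMI (189 CPM). Nkg7 was at 620, 841, 1008 and 1213 CPM with wide ranges at 2 UMIs, and Klf2, a regulator of lymph node homing receptors, was at 1186, 837, 877 and 662 CPM with ranges that overlapped. Ifng did not follow the steps within the members, with means of 65.6, 356, 196 and 160 CPM, and S100a4 in Lag3KO CD4 1 stood at 570, 507 and 536 CPM over the 3 steps of the members. In the smaller CD45 libraries, Lgals1 kept its order in WT CD45 2 only. It stood at 1844, 2459, 1446 and 2962 CPM in WT CD45 1 and at 2289, 3635, 2344 and 2913 CPM in Lag3KO CD45 1. Deeper cells show more Cxcr6 UMIs, and the median depth in WT CD4 1 was 1719, 1929, 2246 and 2684.5 UMIs over the steps, so depth moved with the steps and its part was not tested.

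**Figure D2:**
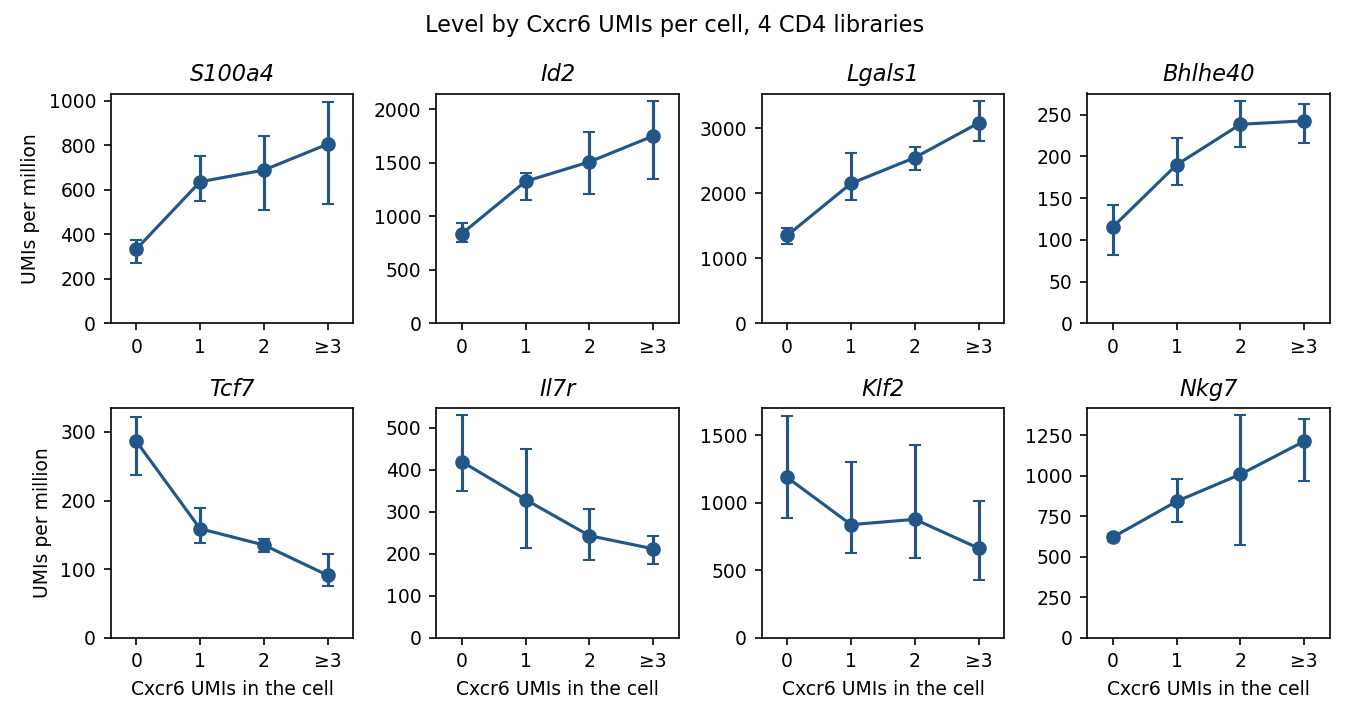
Level in CPM (each axis from 0) of 8 genes in conventional T cells with 0, 1, 2 and 3 or more Cxcr6 UMIs; points are means of the 4 CD4 libraries and bars run from the lowest to the highest library. Lgals1 goes from 1350.5 to 3082 CPM and Tcf7 from 287 to 91.1 CPM.

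The choice of libraries and of depth moved the count of these genes. The CD4 libraries alone gave 149 genes past the limit in every library, and thinning each cell to 1000 UMIs gave 19, of which 5 were among the 30. In the 4 CD4 libraries thinned in this way there were 109, of which 16 were among the 30, and none of the 30 passed the limit in the opposite direction in these settings.

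The share of members among conventional T cells tells whether the Cxcr6-positive state was more or less frequent without LAG3. It was 40.3, 53.8, 51.5, 36.2, 64.7, 57.5 and 56.8%. The WT and Lag3KO libraries of the CD4 enrichment overlapped, with means of 47 ± 9.56% and 43.9 ± 10.8% (SD, n = 2 each). The difference adjusted for the enrichment was -3.65 percentage points (two-sided exact permutation within enrichment, p = 0.444; the smallest p this design allows is 0.0556). It was -4.77 points without the library labelled WT_CD45 2 (exact p = 0.5), 0.061 without Lag3KO CD4 2 (exact p = 1) and 0.859 over all T cell barcodes (exact p = 0.833). No difference was detectable.

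Genotype was then compared within the members, with UMIs summed per library, edgeR's quasi-likelihood test and Benjamini-Hochberg adjustment over all genes fitted. Over both enrichments, with enrichment as a term, 16 of the 7403 genes that the rule did not use (0.216%) passed an adjusted p of 0.05, of which 13 were higher in Lag3KO (0.176%) and 3 lower (0.0405%). Of the higher genes, C1qa, C1qc, Ccl2, Lgmn, Apoe, Trem2, Cd81, Hexa, Ctsl, Cd63 and Aif1 are known from macrophages and microglia, though Cd81 and Cd63 are widely expressed. The others were Tpm3-rs7 and Serpinb6b, and the lower genes were Tpm3, Myo1f and Clec2i. Without the library labelled WT_CD45 2 there were 15, of which 8 were higher, and Aif1, Cd63, Ctsl, Hexa and Trem2 were no longer called. Haemoglobin transcripts divided the CD4 libraries, with 13123 CPM in WT CD4 2, 3190 CPM in Lag3KO CD4 2 and none in the other 2, and with this division as a block 39 genes passed over both enrichments and 20 in the CD4 libraries. Each of the named genes called in those 2 comparisons was called in the blocked fit too. The effector and resting lists held no called gene, with median log2 differences of 0.012 and -0.070 against 0.0035 over all genes.

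In the CD4 libraries, where each genotype had 2 libraries, 7 genes (0.0946%) passed, 4 of them higher in Lag3KO (0.054%) and 3 lower (0.0405%). They included a pair of tropomyosin genes that moved in opposite directions. Tpm3-rs7 (chr14:113314608-113316754) is a near copy of Tpm3 (chr3:90072649-90100902), which encodes an actin-binding tropomyosin. The longest open reading frames of both in the GENCODE M21 annotation have 747 bases, of which 744 (99.6%) are alike. The stretch from base 8 to base 127 of the frame, shown because it holds all 3 differences (in capitals), reads as follows.
Tpm3: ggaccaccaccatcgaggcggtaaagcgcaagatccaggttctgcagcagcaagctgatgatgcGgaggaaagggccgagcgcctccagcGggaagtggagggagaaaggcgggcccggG
Tpm3-rs7: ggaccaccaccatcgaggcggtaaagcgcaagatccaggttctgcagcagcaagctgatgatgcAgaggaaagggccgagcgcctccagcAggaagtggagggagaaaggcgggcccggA

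Tpm3-rs7 stood at 6.05, 7.97, 306, 344, 119, 25 and 141 CPM in the members, and Tpm3 at 369, 424, 70, 70.5, 197, 312 and 231 CPM. The CD4 genotypes did not overlap for either gene, and the CD45 libraries of both genotypes lay between them. For Tpm3, Lag3KO CD45 1 lay between the 2 WT CD45 libraries. Of all genes, 15.9% were higher in both Lag3KO CD4 libraries than in both WT ones and 16.3% were lower. Tpm3-rs7 was higher in the Lag3KO CD4 members by 5.49 ± 0.39 on the log2 scale (SE, edgeR adjusted p = 9.7e-07) and Tpm3 was lower by -2.49 ± 0.20 (edgeR adjusted p = 2.69e-06). Their sum was 375, 432, 376, 414, 316, 337 and 371 CPM, with overlapping genotypes. Since the sequences are near copies, the split of reads between them is uncertain, and the 3′ ends that the assay counts were not compared. Both calls held in all 16 alternatives run, and the difference in genotype effect from the cells without Cxcr6 was -0.04 ± 0.21 for Tpm3 and 0.25 ± 0.40 for Tpm3-rs7 (SE, edgeR adjusted p = 1 for both).

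Tnf, the tumour necrosis factor gene (chr17:35199381-35202007), stood at 43.5, 41, 129, 116, 101, 121 and 66.5 CPM. Both Lag3KO CD4 libraries lay above both WT CD4 libraries, and the log2 difference was 1.52 ± 0.21 (SE, edgeR adjusted p = 0.00397). In the CD45 libraries the Lag3KO value lay below both WT values. Csf2, which encodes GM-CSF (chr11:54247271-54249667), stood at 15.7, 15.9, 63.8, 169, 50.4, 0 and 7.82 CPM, a difference of 2.91 ± 0.50 in the CD4 libraries (SE, edgeR adjusted p = 0.0337). Its level rested on few cells: 1 cell of Lag3KO CD4 2 held 117 of the 168 Csf2 UMIs of that library. Different cells, 1 for each gene, held 134 of its 179 Il2 UMIs and 45 of its 115 Tnf UMIs.

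When the cell richest in each of 7 cytokine and granzyme genes was left out of every library, Tnf stood at 33.7, 34.1, 96.8, 57.1, 36.1, 80.9 and 56.6 CPM (CD4 difference 1.14, edgeR adjusted p = 0.472). Csf2 then stood at 3.74, 10.6, 33.9, 21.8, 10.3, 0 and 4.35 CPM (1.87, adjusted p = 0.727). For both genes the Lag3KO CD4 libraries still lay above the WT ones, an order that 15.9% of all genes had before these cells were removed. Csf2 also lost its call without Lag3KO CD4 2, without members with Treg transcripts and by DESeq2.

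Of the 17 effector cytokine genes tested, 16 had a positive CD4 difference, 2 passed (Tnf and Csf2), and the median was 0.88 against 0.00073 over all genes. In the CD45 libraries 7 were positive and 9 negative, with a median of -0.22, and none passed (1 at an unadjusted p under 0.05). The positive CD4 differences of Il2 and Il17a rested on Lag3KO CD4 2. In Lag3KO CD4 1 these genes stood at 7.77 and 9.33 CPM, below both WT CD4 libraries. Without Lag3KO CD4 2 the Il17a difference was -1.99. Ifng had a difference of 1.22 (edgeR adjusted p = 0.395), which passed without Lag3KO CD4 2 (1.78, adjusted p = 0.000596), and 1 cell held 137 of the 307 Ifng UMIs of Lag3KO CD4 1. Gzmb, which encodes granzyme B, stood at 139, 45.6, 196, 259, 133, 62.4 and 164 CPM, with both Lag3KO CD4 libraries above both WT ones (1.32, edgeR adjusted p = 0.395). Without the richest cells Gzmb reached 1.72 with an adjusted p of 0.0353. All 10 co-stimulatory receptor genes tested had positive differences in the CD4 libraries, with a median of 0.29, and 3 were positive and 7 negative in the CD45 libraries, with a median of -0.32. None passed in either (3 and 1 at an unadjusted p under 0.05).

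**Figure D3:**
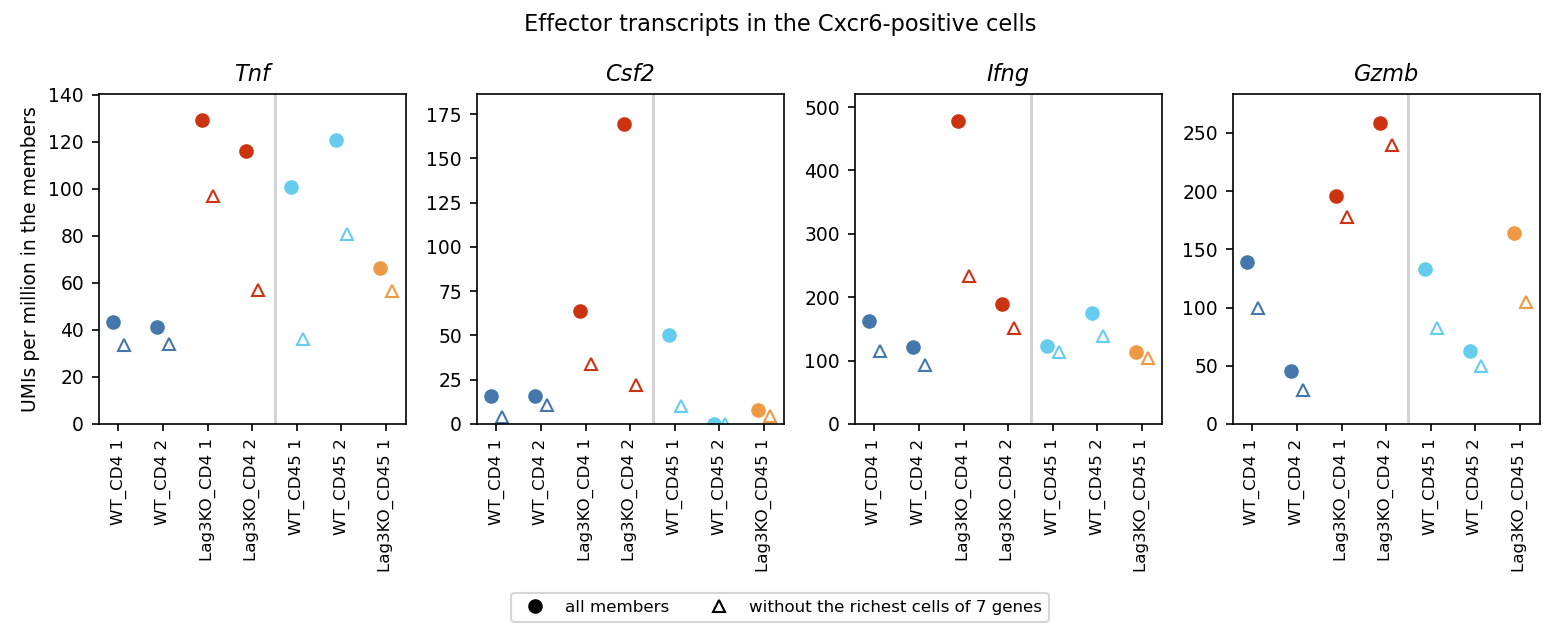
Level in CPM of Tnf, Csf2, Ifng and Gzmb in the members of each library, as filled circles for all members and as open triangles without the richest cells of 7 genes. Csf2 in Lag3KO CD4 2 goes from 169 to 21.8 CPM, and Gzmb in the same library from 259 to 240.0 CPM.

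Clec2i, a C-type lectin gene in the NK gene complex (chr6:128887588-128898167), stood at 39.9, 43.3, 1.55, 8.06, 4.58, 16.6 and 11.7 CPM. It was lower in the Lag3KO CD4 members by -2.89 ± 0.47 (SE, edgeR adjusted p = 0.0246), with no overlap, an order that 16.3% of all genes had. The CD45 values rest on 1, 4 and 3 UMIs, with Lag3KO between the 2 WT values, and are too few to show a difference. Lag3 lies on the same chromosome (chr6:124904361-124911705). Myo1f, a class I myosin of leukocytes (chr17:33555707-33607764), stood at 56.8, 77.4, 14, 24.2, 73.3, 62.4 and 46.9 CPM, and every Lag3KO library was below every WT library of its enrichment (CD4 difference -1.74 ± 0.30, SE, edgeR adjusted p = 0.0337). Of all genes, 6.15% lay below in every library in this way. Both calls were lost by DESeq2 and without WT CD4 2 or Lag3KO CD4 1. Serpinb6b, a granzyme-inhibiting serpin, stood at 99.2, 70.6, 146, 204, 41.2, 62.4 and 78.2 CPM, above WT in every Lag3KO library (0.98 ± 0.20 over both enrichments, SE, edgeR adjusted p = 0.0397), as were 5.42% of all genes. This call was lost by DESeq2 and without WT CD4 2, Lag3KO CD4 2, WT CD45 1 or Lag3KO CD45 1 in turn, with an adjusted p of up to 0.628 over all alternatives. In the CD4 libraries, the cells without Cxcr6 had Clec2i at 53.9, 47.2, 9.11 and 16.0 CPM. Their Myo1f stood at 62.0, 56.3, 15.9 and 20.8 CPM there, and their Serpinb6b at 108, 59.9, 164 and 201 CPM. The order of the CD4 genotypes for these genes was thus not particular to the members.

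**Figure D4:**
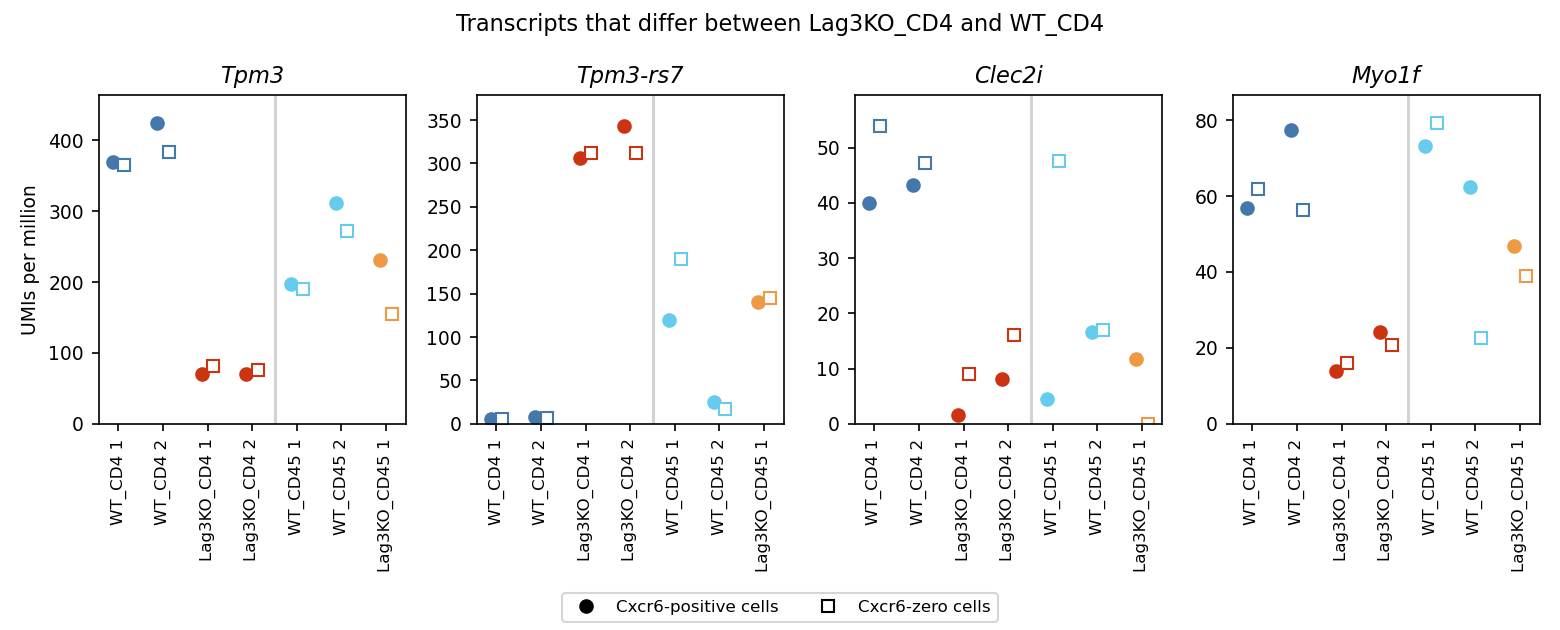
Level in CPM of Tpm3, Tpm3-rs7, Clec2i and Myo1f per library, with Cxcr6-positive cells as filled circles and Cxcr6-zero cells as open squares, coloured by group and with a line between the enrichments. Tpm3-rs7 in the members lies at 6.05 and 7.97 CPM in the WT CD4 libraries and at 306 and 344 CPM in the Lag3KO CD4 libraries.

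In the CD45 libraries, with 1 Lag3KO library, 10 genes (0.135%) passed and all 10 were higher in Lag3KO, and the test takes the spread from the other groups. The genes of the smallest p were C1qc, Ccl2, C1qa, Trem2, Lgmn and Hexa, which encode complement C1q chains, a monocyte-attracting chemokine, a microglial receptor and lysosomal enzymes. Without the library labelled WT_CD45 2, 26 genes passed, 16 of them higher. The calls of Trem2, Lgmn and Hexa were lost without WT CD45 1.

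C1qa stood at 6.05, 6.83, 37.3, 17.1, 513, 666 and 1829.8 CPM in the members, and C1qc at 8.47, 5.69, 28, 26.2, 435, 608 and 1501 CPM. Every Lag3KO library lay above the WT libraries of its enrichment for both genes (C1qa 1.72 ± 0.20 over both enrichments, edgeR adjusted p = 0.000226; C1qc 1.63 ± 0.18, adjusted p = 0.000191; SE). Ccl2 stood at 0, 0, 1.55, 3.02, 27.5, 20.8 and 238 CPM. Without the library labelled WT_CD45 2 the differences were 1.87 for C1qa (adjusted p = 0.000491) and 1.82 for C1qc (adjusted p = 0.000145). The 21 myeloid marker genes, which include Lyz2 and C1qb of the rule, summed to 2206, 2120.4, 2754, 2089.7, 9343, 8957 and 18454 CPM, and none of the 21 was at 0 over the members. The sum was higher in Lag3KO than in both WT libraries in the CD45 enrichment, while in the CD4 enrichment Lag3KO 1 lay above and Lag3KO 2 below both WT libraries. In the cells without Cxcr6, C1qa stood at 6.88, 7.26, 241, 28.0, 894, 471 and 1111 CPM. Their C1qc stood at 5.74, 10.9, 326, 38.4, 562, 340 and 844 CPM. Every Lag3KO library thus lay above the WT libraries of its enrichment in these cells as well. The genotype effect in the members differed from theirs by 0.60 ± 0.32 for C1qa and 0.24 ± 0.37 for C1qc (SE), and neither passed.

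With the limit on Lyz2, C1qb and Cd74 lowered from 120 to 40 per 10000, 44, 58 and 45 members remained in the CD45 libraries and C1qa stood at 6.21, 2.31, 20.9, 17.2, 249, 300.4 and 354 CPM. The difference was then 0.79 over both enrichments (edgeR adjusted p = 0.982). At this limit no gene passed in the CD45 libraries (462 at an unadjusted p under 0.05; DESeq2 called 4 at the limit of 120), and 5 passed over both enrichments, namely Tpm3-rs7, Tpm3, Csf2, Serpinb6b and Myo1f. Lgmn kept more of its difference at the limit of 40 (1.55 in place of 1.69 over both enrichments, adjusted p = 0.385), as did Cd63 (1.79 in place of 2.07, adjusted p = 1.00), with larger errors. C1qa also lost its call over both enrichments without Lag3KO CD45 1, with a difference of 1.96 (adjusted p = 0.324). The part that RNA from myeloid cells has in the remaining differences was not tested.

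**Figure D5:**
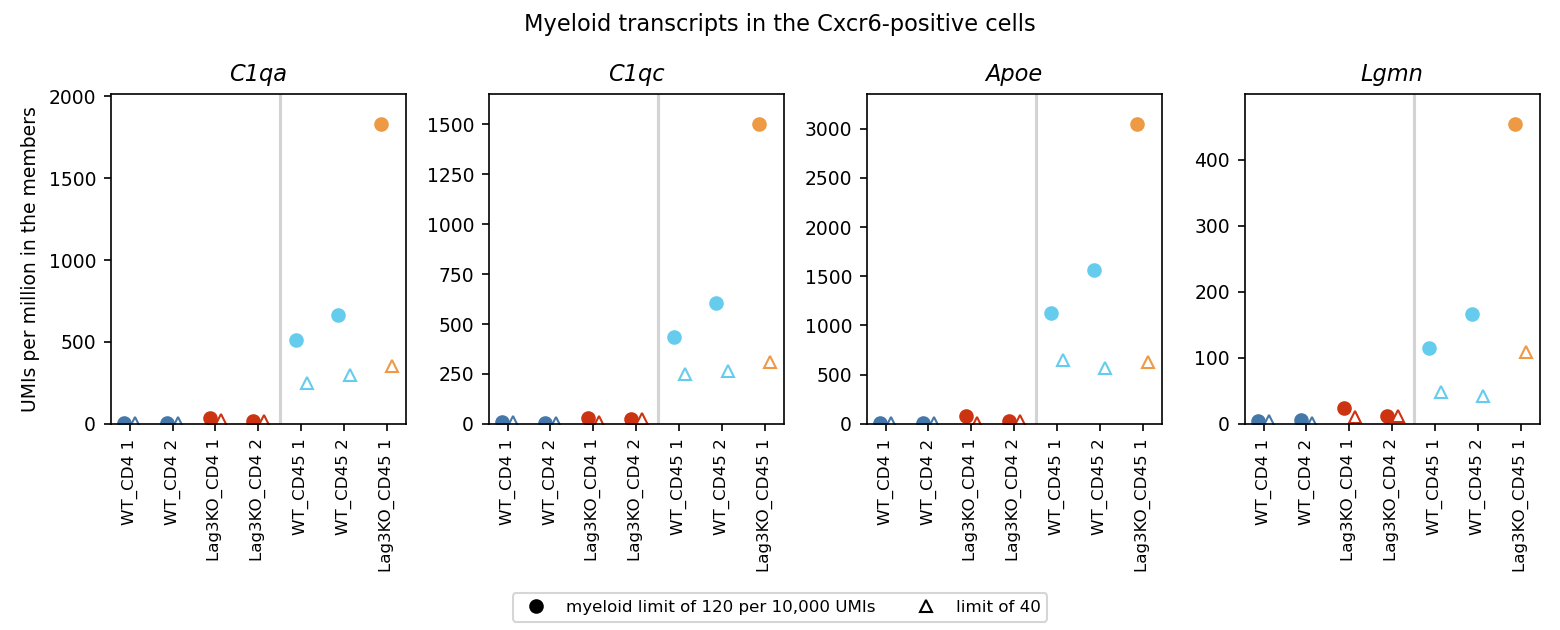
Level in CPM of C1qa, C1qc, Apoe and Lgmn in the members of each library, as filled circles at the limit of 120 myeloid UMIs per 10000 and as open triangles at the limit of 40. C1qa in Lag3KO CD45 1 goes from 1829.8 to 354 CPM, while the WT CD45 libraries go from 513 and 666 to 249 and 300.4 CPM.

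The genotype effect differed between the enrichments for 2 genes (0.027%). They were Tpm3 (-2.37 ± 0.34, SE, edgeR adjusted p = 0.0206), as the 1 more negative in the CD4 libraries (0.0135%), and Tpm3-rs7 (4.46 ± 0.69, adjusted p = 0.0272), as the 1 more positive (0.0135%), both larger in the CD4 libraries. Without the library labelled WT_CD45 2 there were 5 such genes, and without WT CD45 1 the call of Tpm3-rs7 was lost. Tnf did not pass this test (2.23, adjusted p = 0.135).

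Whether the members responded to genotype differently from the cells without Cxcr6 was tested with both classes of every library in one model. Of 7350 genes, 9 passed (0.122%), 6 with a more positive difference in the members (0.0816%) and 3 with a more negative one (0.0408%). They were the cytokine genes Il2, Csf2, Il17a and Xcl1, the neutrophil genes S100a8 and S100a9, and Dapl1, Chil3 and Ckb. Il2 stood at 16.9, 13.7, 7.77, 180.4, 9.16, 20.8 and 7.82 CPM in the members and at 364, 12.7, 13.7, 36.8, 15.8, 28.3 and 22.2 in the cells without Cxcr6. The high values were those of the Lag3KO CD4 2 members and of the WT CD4 1 cells without Cxcr6, and they rested on few cells. Without the richest cells of 7 genes these values were 39.5 and 18.5 CPM. The difference in genotype effect between the classes then fell from 5.14 to 0.30 for Il2. For Csf2 it went from 6.0 to 4.54 (edgeR adjusted p = 0.989), and for Il17a from 4.51 to 7.21 (edgeR adjusted p = 0.000198).

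Il17a was similarly high in the Lag3KO CD4 2 members and in the WT CD4 1 cells without Cxcr6. It stood at 50.8, 26.2, 9.33, 226, 41.2, 33.3 and 39.1 CPM in the members and at 197, 7.26, 20.5, 3.2, 7.91, 125 and 61.1 in the cells without Cxcr6. Ckb, which encodes the brain-type creatine kinase, stood at 169, 149, 124, 55.4, 219.8, 204 and 172 CPM in the members against 31, 43.6, 107, 27.2, 63.3, 68 and 77.8. It was higher in the members of every library, by least in Lag3KO CD4 1 (log2 ratio 0.21), where the cells without Cxcr6 had their highest level. Without Lag3KO CD4 2 no gene passed this test (229 at an unadjusted p under 0.05), without WT CD4 1 there was 1, DESeq2 called 0 (19 at an unadjusted p under 0.05), and without the library labelled WT_CD45 2 there were 18.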

How the data were processed

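The deposited values are UMI counts per gene and barcode, which the authors made with Cell Ranger, per the submitters' processing notes, which also name Seurat and GRCm38 (mm10). The file headers of the CD4 libraries give Cell Ranger 3.0.2, and the version for the CD45 libraries is not given in the sources used here. Libraries were 10x 3′ v2, per the labels' protocols. The 27998 genes listed in all 7 files were used, with Python 3.11.15 and scanpy 1.11.5. UMIs were summed per library and class (at least 20 cells) and given as CPM of all UMIs of that sum.

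Genotype was tested with edgeR 4.0.16 (quasi-likelihood, TMM, filterByExpr) in R 4.3.3, two-sided, with Benjamini-Hochberg adjustment over all fitted genes at 0.05. DESeq2 1.42.0 was the other tool. The fits were also run on simulated data with changes set in some genes. Over both enrichments 21 of 104 simulated calls were false, as were 18 of 89 in the CD4 and 8 of 36 in the CD45 libraries. These shares lie above the 0.05 set by the adjustment. Of simulated 2-fold changes, 34.3, 28.4 and 2.99% were found in these 3 comparisons. Intervals of shares are exact binomial at 95% and cover counting error only. Doublet-like barcodes (0.8% per 1000 barcodes) were kept, and left out as an alternative. Named genes were up to 15 per direction over both enrichments, up to 6 of each other test, and the 12 highest and 8 lowest genes beside Cxcr6, with markers and list members. Some named genes are not reported here. The members, lists and tests were chosen with earlier results of these data known. The limit of 40 myeloid UMIs, the removal of the richest cells and the CD4-only description were added after the data were seen.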

Additional observations from a re-analysis of the deposited data

Results flagged for a closer look

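The Lag3KO minus WT difference in the Cxcr6-positive cells differed between the enrichments for Tpm3 and Tpm3-rs7, by -2.37 and 4.46 on the log2 scale (CD4 minus CD45), with edgeR adjusted p values of 0.0206 and 0.0272.

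The same difference was unlike that in the cells without Cxcr6 for 9 genes. The member difference was more positive by 5.14 for Il2, 6.0 for Csf2, 4.51 for Il17a, 6.35 for Dapl1, 3.58 for Chil3 and 7.01 for Xcl1. It was more negative by -3.89 for S100a9, -2.90 for S100a8 and -1.30 for Ckb. Dapl1 had no UMI in the WT members and Xcl1 none in several sums, so their fitted values depend on the prior count and give no bound. Xcl1 also rested on few cells: 1 member of Lag3KO CD4 1 held all 24 Xcl1 UMIs of the members there, and 1 of Lag3KO CD45 1 held 8 of 12. The calls of Il2 and Csf2 were lost without the richest cells of 7 genes. S100a8 stood at 25.4, 34.2, 10.9, 14.1, 348, 20.8 and 46.9 CPM in the members and at 26.4, 29, 196, 182, 285, 28.3 and 38.9 CPM in the cells without Cxcr6. All 3 of the more negative calls, S100a8, S100a9 and Ckb, were lost when doublet-like barcodes were left out, and the cause was not tested. No group had 4 or more libraries, so no single library was compared with the rest of its group in this way.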

How the results depend on the processing

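No paired analysis was possible because the labels give no replicate numbers and do not tie mice to libraries. Over both enrichments the 16 calls became 4 by DESeq2, 81 with no filter on low counts, 5 without members with Treg transcripts, 39 with libraries blocked by their haemoglobin level and 5 at the myeloid limit of 40, and 8 to 34 with 1 library left out. The 7 CD4 calls became 4, 40, 4 and 20 under the first 4 of these, and 8 to 18 with 1 library left out. The 10 CD45 calls became 4, 64, 1, 27 and 0 under the 5, and 7 to 32 with 1 library left out. The 2 genes whose effect differed between enrichments became 24 with no filter, 0 with at least 2 Cxcr6 UMIs, and 2 to 10 with 1 library left out. The 9 genes that differed between classes became 0 by DESeq2, 17 with no filter, 5 with at least 2 Cxcr6 UMIs, 5 without doublet-like barcodes, 4 without the richest cells, and 0 to 18 with 1 library left out. The share difference of -3.65 points ran from -7.59 to 0.061 with 1 library left out and was 0.859 over all T cell barcodes. The 30 genes described beside Cxcr6 became 19 after thinning, 46 at the myeloid limit of 40 (6 libraries), 149 in the CD4 libraries, 109 in these after thinning, and 33 to 53 with 1 library left out. Without Lag3KO CD45 1 the CD45 test and the test between enrichments give no value. Of 560 alternative values of 36 named results, 417 kept direction and call, 143 lost the call and 0 reversed. The cause was not tested. The CD45 members, 55 to 65 per library, limit what could be seen there.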
